A study of Mus musculus with 21 samples.

Results

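The 6 genes of the regulator of G protein signalling (RGS) family described here, Rgs1, Rgs2, Rgs10, Rgs13, Rgs16 and Rgs19, were followed through the germinal centre response of the mouse lymph node. They are 6 of 14 genes with an Rgs symbol, and of 14493 genes in all, in the deposited count matrix. The 6 genes were chosen by a rule that names them and that used the measured rise of Rgs13 and Rgs10 with day in light zone and dark zone cells. The day values in these 2 zones are therefore a description, with no test.

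Receptors coupled to G proteins guide B cells through the lymph node. A bound receptor loads the G protein α subunit with GTP, and RGS proteins speed the hydrolysis of that GTP and so end the signal. In germinal centres the receptors at work include Cxcr5 and Cxcr4, which draw cells to the light and the dark zone, and S1pr2, which holds them in the centre through the α subunit Gna13. Rgs1 and Rgs13 are known to dampen the chemokine responses of B cells, Rgs2 acts mainly on Gq, and Rgs19 (also called GAIP), Rgs10 and Rgs16 act on Gi and related subunits.

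All animals received 100 µg NP-KLH with Sigma Adjuvant System under the skin at the tail base, and 5 mg tamoxifen by gavage to label cells through Cre-ERT2. The promoter that drives Cre-ERT2 and the strain and age of the mice are not given in the sources used here, and no untreated group was analysed here. Draining lymph nodes were taken on days 10, 16 and 22 from 2 mice each, and live IgD-negative eYFP+ cells were sorted as plasma cells (PC) or as all other B cells. A hashtag antibody recorded the mouse, and each of these fractions went into its own capture well. The 21 samples hold gene expression, receptor and hashtag libraries, and each pools all 6 mice. The matrix held 6619 cells, which the authors had named PC (242 cells), prePC (47), preMem (522), LZtoDZ (232), light zone or LZ (3194) and dark zone or DZ (2382). prePC and preMem are taken as precursors of plasma and memory cells and LZtoDZ as cells between the zones. GC stands for LZ, DZ and LZtoDZ cells together.

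A level is given in CPM, the share of a gene in all UMIs of the sum over the cells of 1 mouse and 1 state, on the usual CPM scale. A cell held 1335 to 70744 UMIs, and 6 barcodes occurred in both wells, 2 of them in the same mouse. The median per cell was 18722.5 UMIs in PC, 15290 in prePC, 5356.5 in preMem, 22505 in LZtoDZ, 7784.5 in LZ and 9310 in DZ. The markers set PC, preMem, LZ and DZ apart. The summed level of 6 plasma cell markers was 13710 to 21390 CPM in PC and 1030 to 1148 CPM in LZ. The summed level of 6 light zone markers was 5681 to 6292 CPM in LZ and 2572 to 3159 CPM in DZ, that of 6 memory precursor markers 754.2 to 944 CPM in preMem and 16.55 to 61.54 CPM in LZ, and that of 6 dark zone markers 619.3 to 727.2 CPM in LZ and 1022 to 1112 CPM in DZ. Of the 8 T cell markers, the sum was 100.7 to 156.1 CPM in LZ and 43.18 to 84.24 CPM in DZ, with Cd4 at 0 in DZ. It was 0 to 24.48 CPM in PC and 54.12 to 109 CPM in preMem, with Cd3e, Cd4 and Cd8a at 0 in both. The 4 naive B cell markers summed to 636.2 to 899.4 CPM in preMem and 163.6 to 343 CPM in LZ. They set prePC and LZtoDZ apart less clearly. In prePC the plasma cell markers summed to 1610 to 4264 CPM, against 1605 to 1868 CPM in DZ. In LZtoDZ the dark zone markers summed to 299.6 to 646.3 CPM, below or within the range of LZ. The light zone markers were at 6252 to 7826 CPM in preMem, with a median of 7161 in preMem and 5871 in LZ. The part of other cell types in the differences between states was not tested. The states are the authors' annotation of these same cells, by a rule not stated in the sources used here, so a test between states is not independent of any gene that entered the naming.

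Rgs2, Rgs13 and Rgs1 lie next to each other on the minus strand of chromosome 1 (GRCm38, GENCODE M21). Rgs2 spans chr1:143999338-144004161, Rgs13 chr1:144138654-144177372 and Rgs1 chr1:144242296-144249242. They are the 3 protein-coding genes of a stretch of 249.9 kb. Rgs16 lies on the plus strand at chr1:153740349-153745468, 9.491 Mb further on. Rgs19 lies at chr2:181688419-181693977 and Rgs10 at chr7:128373621-128418758, both on the minus strand. In the annotation Rgs10 overlaps Gm15503 on the same strand and Rgs16 overlaps Gm28513 on the other, and neither partner is a row of the matrix.

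The promoters of Rgs13 and Rgs10 are shown because these genes carry the day pattern. They differ in base composition. RefSeq's GRCm38.p6 table gives the 250 bases before and the 50 after each start, on the minus strand, at chr1:144177323-144177622 for Rgs13 and chr7:128418123-128418422 for Rgs10. The Rgs10 stretch lies inside the gene span given above, which reaches chr7:128418758. It therefore belongs to a start downstream of the outermost one in GENCODE. Capitals mark GGGCGG, the GC box, read on both strands.
Rgs13: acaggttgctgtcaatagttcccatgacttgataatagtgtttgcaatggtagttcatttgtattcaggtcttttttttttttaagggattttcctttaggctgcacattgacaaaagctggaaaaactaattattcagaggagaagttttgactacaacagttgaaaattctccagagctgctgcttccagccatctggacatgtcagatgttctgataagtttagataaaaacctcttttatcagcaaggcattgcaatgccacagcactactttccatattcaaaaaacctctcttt
Rgs10: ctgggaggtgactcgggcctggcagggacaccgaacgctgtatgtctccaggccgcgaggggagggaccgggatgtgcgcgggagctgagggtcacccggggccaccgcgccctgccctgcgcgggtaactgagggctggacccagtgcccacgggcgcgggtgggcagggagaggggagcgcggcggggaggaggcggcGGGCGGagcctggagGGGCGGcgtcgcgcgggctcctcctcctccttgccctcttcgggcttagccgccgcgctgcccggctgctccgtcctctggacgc
The Rgs13 stretch was 36.7% G and C and the Rgs10 stretch 76%, against a median of 52.7% over 32851 promoters of this length. The motifs searched on both strands were the TATA box (TATAAA), the CAAT box (CCAAT), the GC box given above, the cAMP response element (TGACGTCA) and the octamer (ATTTGCAT). No 2 different motifs occurred in the same stretch, so none overlapped. The Rgs10 stretch held GGGCGG at 2 places, and 35.7% of all promoters hold it. No match to any of the motifs was found in the Rgs13 stretch. The TATA box is held by 13.6% of all promoters, the CAAT box by 37.4%, the cAMP response element by 1.79% and the octamer by 1.74%. A match describes the letters and is not a binding site. The table gave a promoter for 5 of the 6 genes.

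Rgs13 had its highest level in the light and dark zones and its lowest in PC. It averaged 15.5 ± 14.0 CPM in PC, 73.2 ± 51.9 in prePC, 131 ± 53.0 in preMem, 162 ± 93.9 in LZtoDZ, 281 ± 98.9 in LZ and 254 ± 90.7 in DZ (SD, n = 6 mice, 5 in prePC). In the order of the means, LZ, DZ, LZtoDZ, preMem, prePC and PC, the ranges over mice of each pair of neighbours overlapped. Within mice LZ lay above DZ in 6 of 6 and DZ above LZtoDZ in 6 of 6, whereas LZtoDZ lay above preMem in 4 of 6.

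Rgs10 had another order. It averaged 65.4 ± 12.2 CPM in PC, 78.2 ± 59.2 in prePC, 42.5 ± 10.0 in preMem, 76.8 ± 32.3 in LZtoDZ, 111 ± 36.3 in LZ and 129 ± 44.1 in DZ. Its lowest state was preMem, and PC lay above preMem in 6 of 6 mice. In each step of its order, DZ, LZ, prePC, LZtoDZ, PC and preMem, the ranges overlapped.

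Rgs19 varied little between mice in the zones. It averaged 36.1 ± 6.71 CPM in PC, 83.3 ± 32.8 in prePC, 120 ± 26.5 in preMem, 94.0 ± 9.30 in LZtoDZ, 132 ± 3.94 in LZ and 140 ± 8.73 in DZ. Neighbours in the order of its means, DZ, LZ, preMem, LZtoDZ, prePC and PC, overlapped in range, and prePC lay above PC in 5 of 5 mice.

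Rgs2 averaged 4.85 ± 3.94 CPM in PC, 29.0 ± 22.5 in prePC, 50.9 ± 9.83 in preMem, 25.7 ± 3.28 in LZtoDZ, 89.6 ± 9.88 in LZ and 71.9 ± 7.42 in DZ. Its DZ range lay clear of the preMem range, and its LZtoDZ range clear of the PC range. Rgs1 was at 23.3 ± 23.5 CPM in PC, 24.1 ± 23.8 in prePC, 23.8 ± 12.3 in preMem, 16.1 ± 8.35 in LZtoDZ, 44.7 ± 10.3 in LZ and 38.3 ± 13.1 in DZ, with overlapping ranges throughout.

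Rgs16 was near 0 in LZ, DZ and LZtoDZ cells. The table held 7 UMIs in PC, 7 in prePC, 2 in preMem, 0 in LZtoDZ, 1 in LZ and 1 in DZ. A UMI was found in 3 of 242 PC (1.24%, exact 95% interval 0.256 to 3.58%) and in 2 of 47 prePC (4.26%, 0.52 to 14.5%), and in 0 of 232 LZtoDZ cells, which allows a share of up to 1.29% of cells with a UMI (3 counts; the exact 95% upper limit is 1.58%) and does not limit the share of cells that express the gene. Per UMI sequenced Rgs16 was 43.2 times as frequent in PC as in GC (exact 95% interval 8.23 to 426), and 226 times as frequent in prePC as in GC (43.0 to 2229). These intervals cover counting error only. The 7 PC molecules came from 3 mice with up to 3 in 1 cell, and the 7 prePC molecules from 2 cells of 2 mice, with up to 4 in 1 cell. Rgs16 passed the filter on low counts in no comparison, so it has no test in the values below, while the other 5 genes passed it in each comparison of states. With no filter, edgeR called Rgs16 higher in PC than in GC (adjusted p = 0.0042) and higher in prePC than in GC (adjusted p = 3.2e-09), on 7 UMIs in PC, 7 in prePC and 2 in GC, and in none of the other 4 comparisons of states.

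**Figure D1:**
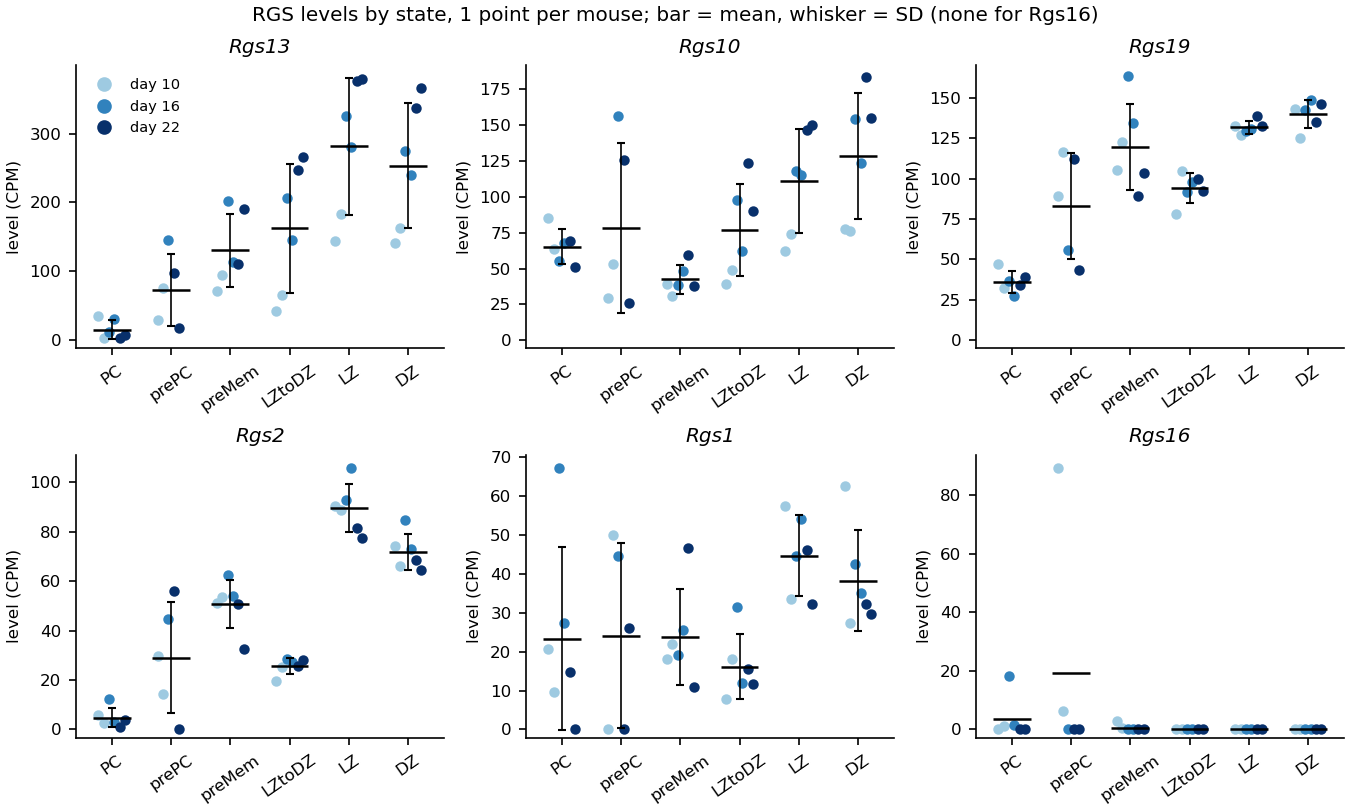
Level of each RGS gene (CPM, linear axis, a scale per panel) in 6 states; each point is 1 mouse, coloured by day, with the mean as a bar and the SD as a whisker (none for Rgs16). Rgs13, Rgs19 and Rgs2 are lowest in PC, Rgs10 is lowest in preMem, and Rgs16 is above 1 CPM in 3 mice in PC, 2 in prePC and 1 in preMem.

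Comparing LZ with DZ asks whether the 2 zones, with their different chemokine receptors, differ in these regulators. The differences were small. Rgs2 stood at 77.7 to 106 CPM in LZ (median 89.8) and at 64.5 to 85.0 in DZ (median 70.7), a log2 difference of 0.33 ± 0.05 (SE; adjusted p = 0.00029, edgeR), with LZ higher in 6 of 6 mice and overlapping ranges. Rgs13 was higher in LZ by 0.15 ± 0.04 (adjusted p = 0.0043, 6 of 6 mice) and Rgs1 by 0.27 ± 0.09 (adjusted p = 0.033, 5 of 6 mice). Rgs10 was lower in LZ, at −0.19 ± 0.05 (adjusted p = 0.008, lower in 6 of 6 mice). Rgs19 stood at −0.08 ± 0.04 (adjusted p = 0.138). Of 9390 genes tested, 16.5% were higher and 17.4% lower in LZ, beside which stand 3 higher and 1 lower of the 5 RGS genes. The call of Rgs1 was lost without day 10 mouse 2 (adjusted p = 0.0631), without day 16 mouse 2 (0.137), without day 22 mouse 1 (0.123), in G1 cells (0.321) and with DESeq2's test (0.183), and that of Rgs10 without day 22 mouse 1 (0.0531) and with DESeq2's test (0.065), each an adjusted p. With cells thinned to 4727 UMIs, Rgs1 (0.19, adjusted p = 0.22) and Rgs10 (−0.17, adjusted p = 0.0521) were not called, and Rgs19 was called lower in LZ (−0.14, adjusted p = 0.0479). In cells called G1 only, Rgs2 kept 0.29 (adjusted p = 0.0301), Rgs13 0.17 (0.0479) and Rgs10 −0.27 (0.0184).

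Other genes of the pathway also differed between the zones. Of the 15 tested receptors on the list, 8 were higher and 2 lower in LZ (median 0.61 on the log2 scale, against 0.00 over all genes). Cxcr5, the light zone chemokine receptor, averaged 75.8 ± 2.19 CPM in LZ and 43.5 ± 4.32 in DZ (log2 difference 0.79 ± 0.06, adjusted p = 2.5e-07), and Cxcr4, the dark zone receptor, 14.9 ± 2.61 CPM in LZ and 31.7 ± 4.31 in DZ (−1.08 ± 0.09, adjusted p = 2.8e-07). Gpr18, a receptor found on lymphocytes, was higher in LZ by 0.61 ± 0.05. Of 18 tested G protein subunits, 2 were higher and 9 lower (median −0.18). The γ subunit gene Gng12 fell by 0.52 and the β subunit gene Gnb4 by 0.77 on the log2 scale in LZ relative to DZ, and Gngt2, another γ subunit, was higher by 0.35. Of 17 kinases, arrestins and effectors, 4 were higher and 3 lower (median 0.04). Gpsm2, a regulator that binds Gαi, stood at −1.02 ± 0.12, the Rap exchange factor Rasgrp2 at −0.52 ± 0.07 and the GTPase Rac2 at 0.13 ± 0.02. Of 15 other RGS genes on the list, 8 were in the matrix and 3 were tested, of which 1 was higher in LZ and none lower (median 0.21). It was Rgs18, named after its values were seen, at 5.78 CPM in LZ and 3.11 in DZ (0.99, adjusted p = 0.0023).

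All 5 tested RGS genes had a lower share of the RNA of LZtoDZ cells than of LZ cells. Rgs2 stood at 19.5 to 28.4 CPM in LZtoDZ (median 26.5) and at 77.7 to 106 CPM in LZ, and the ranges did not overlap. Its log2 difference was −1.72 ± 0.10 (adjusted p = 4.9e-09), that of Rgs1 −1.34 ± 0.20 (5.1e-05), of Rgs13 −0.82 ± 0.12 (3.9e-05), of Rgs10 −0.50 ± 0.10 (0.00056) and of Rgs19 −0.41 ± 0.08 (0.0003), by edgeR with adjusted p in brackets and each lower in 6 of 6 mice. In this comparison 27.5% of 8081 genes were higher and 28.9% lower. Against DZ the 5 genes fell too, Rgs2 by 1.36, Rgs1 by 1.00, Rgs10 by 0.67, Rgs13 by 0.63 and Rgs19 by 0.47 on the log2 scale, with 27.9% of 7979 genes higher and 29.8% lower. The LZtoDZ sums are shared by both comparisons.

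Per cell the order was another. LZtoDZ cells held 22505 UMIs in the median and LZ cells 7784.5. Rgs13 averaged 3.77 ± 1.96 UMIs per cell in LZtoDZ, 2.43 ± 0.72 in LZ and 2.73 ± 0.749 in DZ, and LZtoDZ was above LZ in 5 of 6 mice. Rgs10 averaged 1.82 ± 0.696, 0.964 ± 0.262 and 1.39 ± 0.37 UMIs per cell in the same order, and was above LZ in 6 of 6 mice. Rgs19 averaged 2.28 ± 0.451, 1.16 ± 0.0885 and 1.55 ± 0.172, and was above both zones in 6 of 6 mice. Rgs2 was lower on this scale as well, with 0.62 ± 0.101 UMIs per cell in LZtoDZ, 0.794 ± 0.118 in LZ and 0.797 ± 0.104 in DZ, below both zones in 6 of 6 mice. Rgs1 averaged 0.389 ± 0.197, 0.397 ± 0.107 and 0.428 ± 0.173. So Rgs10, Rgs13 and Rgs19 had a lower share of the RNA of LZtoDZ cells but higher mean molecule numbers per cell than in LZ, and the part of RNA content per cell in these differences was not tested. Between 54.55 and 76.19% of LZtoDZ cells were called S phase, and between 30.33 and 35.51% of LZ cells. In LZ cells called S phase, Rgs13 averaged 270, Rgs10 132, Rgs19 115, Rgs2 76.4 and Rgs1 40.8 CPM. Levels of LZtoDZ cells by phase were not computed, and the part of phase in these differences was not tested.

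**Figure D2:**
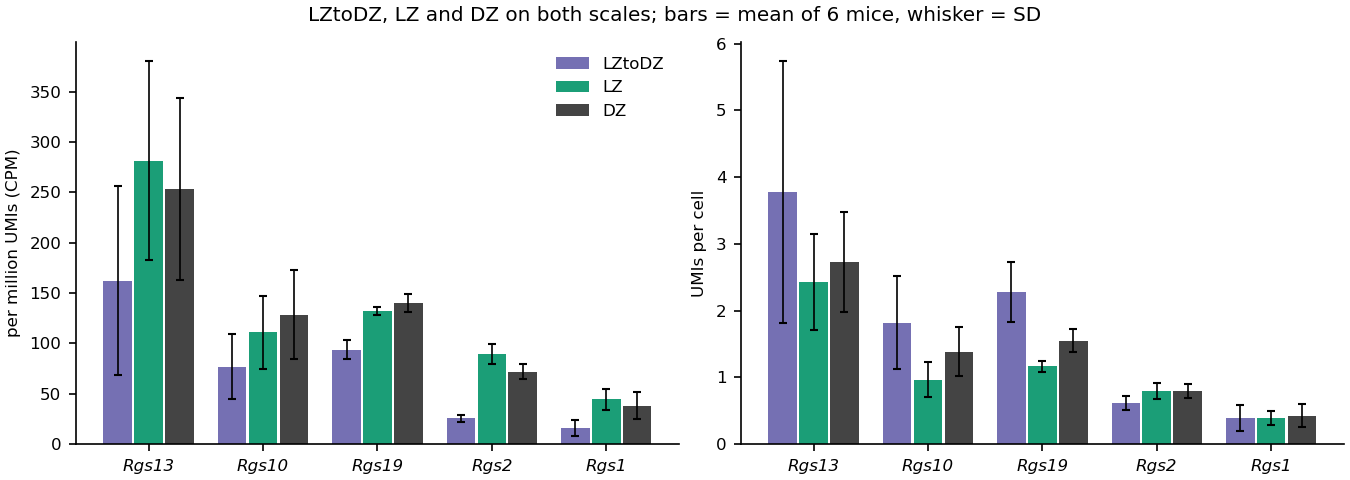
Mean of 6 mice (bars, SD as whiskers) in LZtoDZ, LZ and DZ, as CPM on the left and as UMIs per cell on the right. Each gene has its lowest CPM in LZtoDZ, while UMIs per cell of Rgs13, Rgs10 and Rgs19 are highest there and those of Rgs2 lowest.

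Other genes of the pathway were lower in LZtoDZ as well. Against LZ, 1 of 14 subunits was higher and 7 lower (median −0.22), 0 of 10 receptors higher and 7 lower (median −0.87), and 0 of 15 kinases, arrestins and effectors higher and 11 lower (median −0.73, against −0.04 over all genes). Both other RGS genes tested fell, chosen after their values were seen: Rgs14, a relative of Rgs10, by 1.60, and Rgs9 by 0.99 on the log2 scale. Against DZ, 1 of 15 subunits was higher and 10 lower (median −0.55), 0 of 7 receptors higher and 4 lower (median −0.71), and 2 of 15 kinases and effectors higher and 13 lower (median −0.70, against −0.05 over all genes). Rgs14 fell by 1.53 and Rgs9 by 0.76 on the log2 scale relative to DZ.

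Of the 5 tested RGS genes, 4 were lower in preMem than in LZ, the comparison that asks how cells named as memory precursors differ from the light zone. Rgs10 stood at 31.1 to 59.5 CPM in preMem (median 38.8) and at 62.3 to 150 CPM in LZ (median 117), without overlap, a log2 difference of −1.21 ± 0.14 (adjusted p = 2.4e-06, edgeR). Rgs13 was at 72.2 to 202 CPM in preMem (median 112) and 144 to 380 in LZ (median 302), with overlapping ranges, and it was lower in 6 of 6 mice (a log2 difference of −0.996 ± 0.12, adjusted p = 1.9e-06). Rgs2 was lower as well (−0.70 ± 0.13, adjusted p = 0.00033, 6 of 6 mice) and Rgs1 stood at −0.75 ± 0.21 (adjusted p = 0.0092, lower in 5 of 6 mice). Rgs19 averaged 120 ± 26.5 CPM in preMem and 132 ± 3.94 in LZ, with a log2 difference of −0.03 (adjusted p = 0.992), and was higher in preMem in 2 of 6 mice. The background was 14.7% higher and 17% lower of 8400 genes. With cells thinned to 4727 UMIs the calls of Rgs1 (−0.60, adjusted p = 0.121) and Rgs2 (−0.39, adjusted p = 0.153) were lost. Thinning also leaves out the cells below that depth. The median preMem cell held 4410 UMIs in day 16 mouse 1 and 4520 in day 22 mouse 2. The parts of depth and of the cells left out were not tested. In cells called G1 all 4 calls held, with Rgs2 at −0.90 and Rgs1 at −1.01.

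Most receptors were higher in preMem. Of 16 tested, 12 were higher and 1 lower (median 1.53). Gpr183, the oxysterol receptor EBI2, averaged 113 ± 22.0 CPM in preMem and 8.08 ± 3.77 in LZ (3.91 ± 0.19, adjusted p = 3.4e-11), and the chemokine receptor Ccr6 198 ± 32.6 CPM and 10.6 ± 7.44 (4.38 ± 0.24). S1pr4, a receptor for sphingosine 1-phosphate, was higher by 2.65 ± 0.15. Gpr183 and Ccr6 are also on the list of memory precursor markers, so these values describe the state. Of 17 subunits 3 were higher and 6 lower (median −0.27), among the lower ones Gng5 (−0.38), Gnb2 (−0.42) and Gnas (−0.37), the α subunit of Gs. Of 17 kinases and effectors 6 were higher and 3 lower (median −0.03), with Rasgrp2 at 1.74 ± 0.15, the Rac exchange factor Dock2 at 0.60 ± 0.11 and Rac2 at 0.17 ± 0.04. Of 3 other RGS genes, 1 was higher and none lower: Rgs14 averaged 37.3 ± 9.86 CPM in preMem and 19.7 ± 1.67 in LZ (0.96 ± 0.20, adjusted p = 0.00088).

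Rgs2 and Rgs13 were the most reduced of these genes in PC, and Rgs10 was not called. Rgs2 was at 1.14 to 12.2 CPM in PC (median 3.57) and at 68.0 to 83.7 CPM in GC (median 76.4), a log2 difference of −3.92 ± 0.26 (adjusted p = 4.3e-07, edgeR). Rgs13 was at 3.42 to 35.4 CPM in PC (median 10.0) and 138 to 365 in GC (median 270), a difference of −3.70 ± 0.47 (adjusted p = 7.7e-05). Rgs19 was at 27.4 to 47.2 CPM in PC (median 35.4) and 124 to 135 in GC (median 134), a difference of −1.30 ± 0.14 (adjusted p = 2.3e-05). None of the 3 pairs of ranges overlapped, and each gene was lower in 6 of 6 mice. The background was 20.4% higher and 25.5% lower of 9143 genes, with a median of −0.14.

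Rgs10 averaged 65.4 ± 12.2 CPM in PC and 116 ± 39.0 in GC, and Rgs1 23.3 ± 23.5 CPM and 39.5 ± 10.5, with log2 differences of −0.10 ± 0.22 (adjusted p = 0.745) and −0.50 ± 0.32 (adjusted p = 0.226). By CPM each was lower in PC in 5 of the 6 mice, with 1 mouse higher. The scale bears on these values. The log2 differences use library sizes scaled by TMM, which placed PC higher relative to GC than CPM does: the mean log2 scaling factor of PC minus that of GC was −0.61. Immunoglobulin genes took 24.6% ± 4.31 of the UMIs of PC and 1.53% ± 0.0998 of those of GC (SD, n = 6). With immunoglobulin genes left out of the total, Rgs10 averaged 86.6 ± 15.1 CPM in PC and 118 ± 39.5 in GC, Rgs19 48.3 ± 10.3 and 134 ± 4.5, Rgs13 20.2 ± 17.8 and 262 ± 94.7, and Rgs2 a mean of 6.56 and 77.4. The sign of the Rgs10 difference turned without day 16 mouse 2, without either day 22 mouse, with at least 30 cells per sum and within the PC well. Rgs1 was called lower without day 16 mouse 1 (−0.77, adjusted p = 0.0334), where it stood at 67.3 CPM in PC, and with at least 30 cells per sum (−0.80, adjusted p = 0.0467). That minimum, under which the Rgs10 sign turned too, kept only day 10 mouse 2 (127 PC) and day 22 mouse 1 (43 PC). The PC well supplied 234 of the 242 PC, but it also held 156 GC cells. Within that well, a comparison added after seeing the data, 4 mice had at least 10 cells of both kinds. There Rgs13 averaged 8.76 ± 4.08 CPM in PC and 209 ± 79.3 in GC (−3.94 ± 0.25, adjusted p = 3.1e-06, edgeR). Rgs2 stood at −3.68 ± 0.56 (adjusted p = 0.0007) and Rgs19 at −1.15 ± 0.25 (adjusted p = 0.0052), each lower in PC in 4 of 4 mice. Rgs10 stood at 0.12 ± 0.27 (adjusted p = 0.752), and Rgs1 was not tested because of its low counts.

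In prePC, Rgs2 and Rgs13 were the RGS genes called. Rgs13 was at 29.8 and 75.9 CPM in the day 10 mice, 145 in day 16 mouse 2 and 97.9 and 17.3 in the day 22 mice, against a GC mean of 251 ± 103 over the same 5 mice (−1.67 ± 0.27, adjusted p = 4.2e-08, edgeR). Rgs2 averaged 29.0 ± 22.5 CPM in prePC and 74.7 ± 6.52 in GC (−1.74 ± 0.41, adjusted p = 0.00067). Rgs19 stood at −0.64 ± 0.28 (adjusted p = 0.175), Rgs10 at −0.55 ± 0.29 (0.304) and Rgs1 at 0.01 ± 0.38 (0.995). Here 3.71% of 8631 genes were higher and 4.72% lower. In prePC the memory precursor markers summed to 277.1 to 894.3 CPM (16.55 to 61.54 in LZ and 10.35 to 15.28 in DZ), the naive B cell markers to 129.9 to 506.8, the T cell markers to 17.32 to 405.4 and the myeloid markers to 8.658 to 238.5 CPM, and their part was not tested. With thinned cells Rgs2 was not called (−1.22, adjusted p = 0.354). The sums hold 3 to 28 cells, the most in day 10 mouse 2, and without that mouse Rgs2 was not called (−1.41, adjusted p = 0.125).

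**Figure D3:**
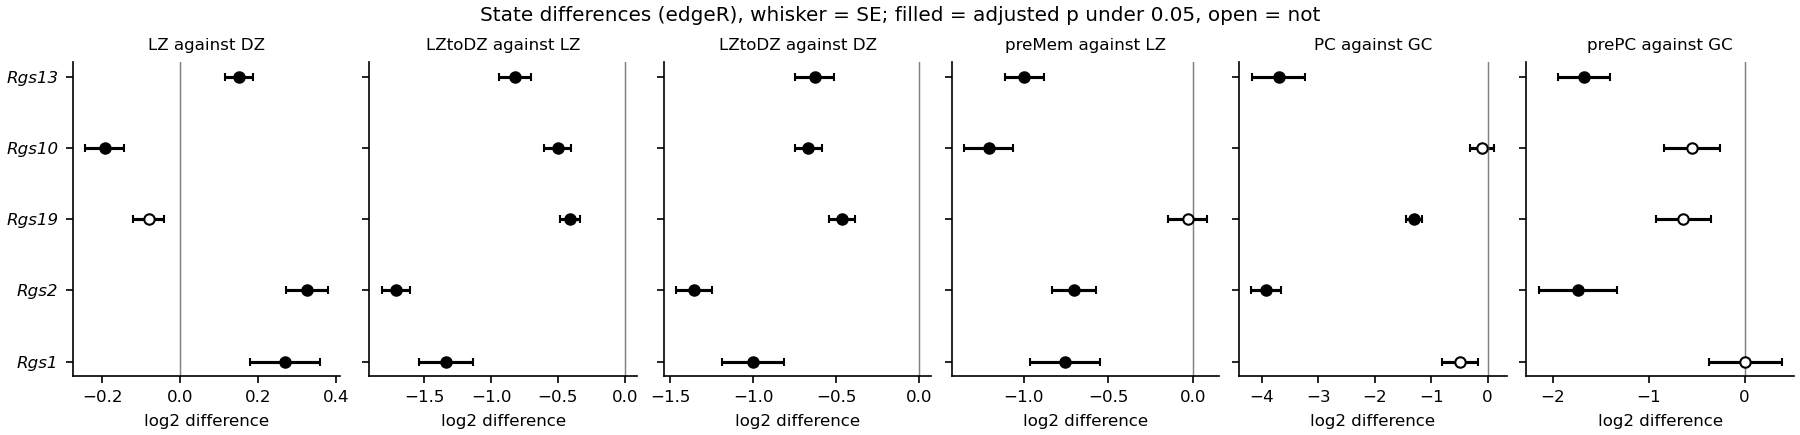
Log2 difference of each of 5 RGS genes (points, SE as whiskers) in 6 comparisons of states, each panel with its own axis; filled points have an adjusted p under 0.05 by edgeR. Differences between LZ and DZ lie between −0.19 and 0.33, and those of Rgs2 and Rgs13 in PC at −3.92 and −3.70.

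The partners of these genes in PC moved both ways. Of 14 tested receptors 7 were higher and 5 lower (median 0.70). Cxcr3, the receptor for interferon-induced chemokines, averaged 64.9 ± 31.8 CPM in PC and 3.72 ± 2.00 in GC (4.74 ± 0.40, adjusted p = 2.7e-06). S1pr2 averaged 13.6 ± 15.9 CPM in PC and 181 ± 21.8 in GC (−3.69 ± 0.39) and Gpr18 9.73 ± 4.51 and 84.8 ± 8.46 (−2.45 ± 0.20). Of 18 subunits 2 were higher and 9 lower (median −0.51), among the lower ones Gngt2 (−2.04), Gna13 (−1.35) and Gnai2, a main Gi subunit of lymphocytes, at 93.9 ± 24.4 CPM in PC and 284 ± 13.1 in GC. Of 18 kinases and effectors 2 were higher and 9 lower (median −0.88). Pik3r5, a regulatory subunit of PI3Kγ, averaged 22.4 ± 8.62 CPM in PC and 0.597 ± 0.22 in GC (5.67 ± 0.31), while Gpsm3 stood at −3.00 ± 0.20 and Rac2 at −1.73 ± 0.12. Of 2 other RGS genes tested none was higher and 1 was lower, Rgs9, named after its values were seen (1.21 CPM in PC and 9.49 in GC, −3.56, adjusted p = 0.0015). In prePC against GC, 0 of 18 subunits were higher and 2 lower (median −0.31), 7 of 15 receptors higher and 2 lower (median 0.47), 1 of 17 kinases and effectors higher and 3 lower (median −0.54, against −0.15 over all genes), and of 2 other RGS genes Rgs9 was lower.

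The day values in LZ and DZ chose the genes and are given as a description. In LZ, Rgs13 stood at 144.3 and 183.2 CPM on day 10, 324.8 and 280 on day 16 and 375.9 and 379.7 on day 22. In DZ it stood at 141.8 and 162.4, then 274.5 and 239.4, then 337.1 and 366.1 CPM. The pairs of mice did not overlap between any of the days in either zone. The log2 difference of day 22 from day 10 was 1.14 ± 0.11 in LZ and 1.16 ± 0.10 in DZ (SE, 2 mice a day).

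Rgs10 ran in parallel. It stood at 62.28 and 74.29 CPM in LZ on day 10, 118.4 and 115.5 on day 16 and 146.5 and 150.2 on day 22, and in DZ at 77.57 and 76.39, then 154.2 and 123.9, then 183.6 and 155.3. Its log2 difference of day 22 from day 10 was 1.05 ± 0.08 in LZ and 1.10 ± 0.12 in DZ. Most of it lay between days 10 and 16, with 0.72 ± 0.08 in LZ and 0.81 ± 0.12 in DZ, against 0.33 ± 0.08 and 0.29 ± 0.12 from day 16 to day 22.

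The other genes, inside the list but outside the named rise, changed by less. Rgs19 moved by 0.01 ± 0.07 in LZ and 0.03 ± 0.09 in DZ between days 10 and 22, with 6 LZ values between 127 and 138 CPM. Rgs2 moved by −0.22 ± 0.08 and −0.11 ± 0.11, with its highest level on day 16. Rgs1 moved by −0.21 ± 0.26 and −0.53 ± 0.31, and single mice decide this value. Rgs1 was at 57.4 and 33.6 CPM in LZ on day 10, and at 62.7 and 27.4 in DZ. Without day 10 mouse 1 the difference was 0.18 in LZ and 0.13 in DZ, and without day 10 mouse 2 it was −0.61 in LZ and −1.06 in DZ. Without day 22 mouse 1 it was −0.50 in LZ, and without day 22 mouse 2 it was 0.03. In the same contrast 0.666% of 9753 genes were called higher and 0.851% lower in LZ, and 0.23% of 9572 higher and 0.303% lower in DZ.

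Depth and phase moved with day. The median UMIs per LZ cell were 9010 and 8632 on day 10, 7204 and 7912 on day 16 and 7302 and 7242 on day 22, and the share of LZ cells called G1 was 46.01 and 49.15%, then 58.13 and 54.4%, then 58.69 and 56.13%. In DZ the median was 10420 and 10740 UMIs on day 10, 8182 and 9807 on day 16 and 8833 and 8551 on day 22, and the share called G1 was 35.51 and 28.95%, then 42.36 and 35.62%, then 38.84 and 40.08%. With cells thinned to 4727 UMIs the differences of day 22 from day 10 were 1.09 for Rgs13 and 1.04 for Rgs10 in LZ, and 1.11 and 1.05 in DZ. In G1 cells alone they were 1.01 for Rgs13 and 1.02 for Rgs10 in LZ, and 0.98 and 0.86 in DZ.

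Cells outside the 2 zones give values that the choice of genes did not use. In LZtoDZ, Rgs13 was at 42.8 and 64.98 CPM on day 10, 206.5 and 145.5 on day 16 and 247.7 and 266.2 on day 22, with no overlap between days. The log2 difference of day 22 from day 10 was 2.11 ± 0.22 (adjusted p = 0.00025, edgeR) and that of day 16 from day 10 was 1.55 ± 0.22 (adjusted p = 0.0088). Rgs13 was the 1 of 5 RGS genes called, where 0.103% of 6820 genes were higher and 0.0733% lower. Rgs10 was at 38.91 and 48.9, then 97.74 and 62.1, then 123.5 and 89.91 CPM, a difference of 1.21 ± 0.27 that was not called (adjusted p = 0.19, edgeR). Rgs10 was called without immunoglobulin genes (adjusted p = 0.0272, edgeR). It was also called with no filter on low counts (adjusted p = 0.00015, edgeR), where calls over all genes were 104, against 12. With DESeq2's scaling, DESeq2's test, thinned cells or the non-PC well, 1 RGS gene was called. A minimum of 30 cells per sum drops day 10 mouse 1 (11 cells) and day 16 mouse 1 (28 cells), so no call of Rgs10 is given for it. Rgs2 (0.14 ± 0.30), Rgs19 (0.00 ± 0.20) and Rgs1 (−0.21 ± 0.50) had differences below their SE. The first day 10 sum holds 11 cells, against 28 to 54 in the other mice. Without that mouse the Rgs13 difference was 1.97 (adjusted p = 0.0017). LZtoDZ cells come from the same mice and wells as the zone cells, so these values share animals with those that chose the genes.

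Relative to LZ of the same mouse, the Rgs13 level of LZtoDZ was 29.66 and 35.47% on day 10, 63.58 and 51.96% on day 16 and 65.9 and 70.11% on day 22. The change of the difference between LZtoDZ and LZ was computed as an interaction, added after the values were seen. It is built from the LZ and DZ day values that chose the genes as well as from the LZtoDZ sums, so it is a description with no test. From day 10 to day 22 the log2 difference of LZtoDZ from LZ grew less negative by 1.01 ± 0.19 (SE) for Rgs13, and that from DZ by 1.00 ± 0.20. Both share the LZtoDZ sums. The value relative to LZ was 1.48 with thinned cells and 1.23 without day 10 mouse 2. For Rgs10 it was 0.17 ± 0.27 relative to LZ and 0.10 ± 0.23 relative to DZ. The change of the difference between LZ and DZ ranged over the 5 genes between −0.11 and 0.25.

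In preMem no RGS gene was called between days. Rgs13 was at 72.16 and 94.93 CPM on day 10, 201.8 and 114.1 on day 16 and 110.5 and 190.8 on day 22. Its difference of day 22 from day 10 was 0.71 ± 0.33 (adjusted p = 0.937, edgeR, unadjusted p = 0.0507), and Rgs10's was 0.53 ± 0.37 (adjusted p = 0.939). Of the 4 tested RGS genes 0 were called by edgeR, 0 had an unadjusted p under 0.05 in this contrast and 0 were called by DESeq2. Here 0.0263% of 3799 genes were higher and 0.0526% lower, and Rgs1 was not tested because of its low counts. In PC, Rgs10 was at 85.5 and 63.7 CPM on day 10, 55.1 and 67.8 on day 16 and 69.5 and 50.8 on day 22, with no common course over the days.

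**Figure D4:**
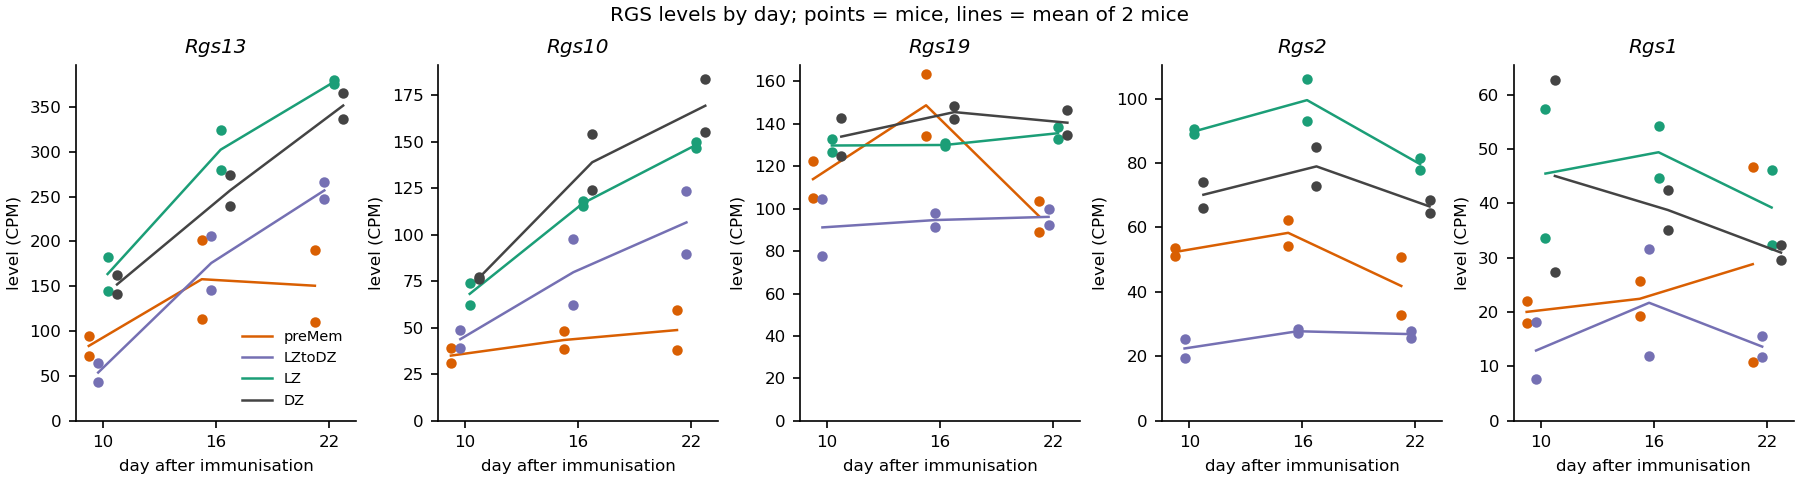
Level (CPM) of 5 RGS genes on days 10, 16 and 22 in preMem, LZtoDZ, LZ and DZ; points are mice and lines join the means of 2 mice. Rgs13 and Rgs10 are higher on day 22 than on day 10 in both mice in LZtoDZ, LZ and DZ. The mean of Rgs2 is highest on day 16 in all of these states and in preMem, while Rgs19 and Rgs1 have no course common to the states.

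Few genes of the pathway were called between days 10 and 22, and with 2 mice a day a missing call does not show a steady level. In LZ, S1pr2 averaged 216 ± 2.17 CPM on day 22 and 164 ± 0.48 on day 10 (log2 difference 0.34 ± 0.06, adjusted p = 0.0234, edgeR), and Gng12 93.3 ± 2.51 and 68.4 ± 1.28 CPM (0.39 ± 0.08, adjusted p = 0.0458). Others were called at levels under 20 CPM and are named after their values were seen. Rgs9 was higher (14.2 CPM on day 22 and 6.33 on day 10 in LZ, 1.17, adjusted p = 0.043), and Rgs18 was lower (2.02 and 11.6 CPM, −2.60, adjusted p = 0.0058). Gng3 was higher in LZ (1.55) and DZ (1.88), and Ccr6 was lower in LZ (−2.39). In LZ this makes 1 higher and 1 lower of 3 other RGS genes, 2 higher of 18 subunits, 1 higher and 1 lower of 18 receptors and 0 of 18 kinases and effectors, and in DZ 1 higher of 18 subunits and no other call. Between days 10 and 22, 0 genes of these lists were called by edgeR in preMem or LZtoDZ, where an unadjusted p under 0.05 was found for 1 gene in preMem (Grk6) and for 3 in LZtoDZ (Gng3, Gng12 and Rasgrp2). The median log2 differences in LZ were 0.01 for the other RGS genes, 0.02 for the subunits and −0.11 for the kinases and effectors. That of the 18 tested receptors was −0.48, against 0.00 over all genes.

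By the deposited phase calls, Rgs19, Rgs2 and, in most mice, Rgs1 were highest in G1. Rgs19 averaged 155 ± 5.64 CPM in G1, 115 ± 5.50 in S and 115 ± 6.49 in G2M cells of LZ, and 176 ± 12.6, 119 ± 9.19 and 134 ± 11.8 in DZ (SD, n = 6 mice), with G1 highest in 6 of 6 mice in both zones. Rgs2 averaged 108 ± 11.4, 76.4 ± 11.8 and 76.0 ± 15.3 in LZ and 91.0, 63.7 and 67.8 in DZ, again with G1 highest in 6 of 6 mice. Rgs1 was highest in G1 in 6 of 6 mice in LZ and 5 of 6 in DZ. Rgs10 was highest in S phase, in 6 of 6 mice in LZ and 4 of 6 in DZ, at 132 ± 44.3 CPM in S and 98.4 ± 32.5 in G1 cells of LZ. Rgs13 was highest in G1 in 5 of 6 mice in LZ (304 ± 101, 270 ± 89.3 and 255 ± 110 CPM in G1, S and G2M). Phase calls use expression, and these values carry no test.

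**Figure D5:**
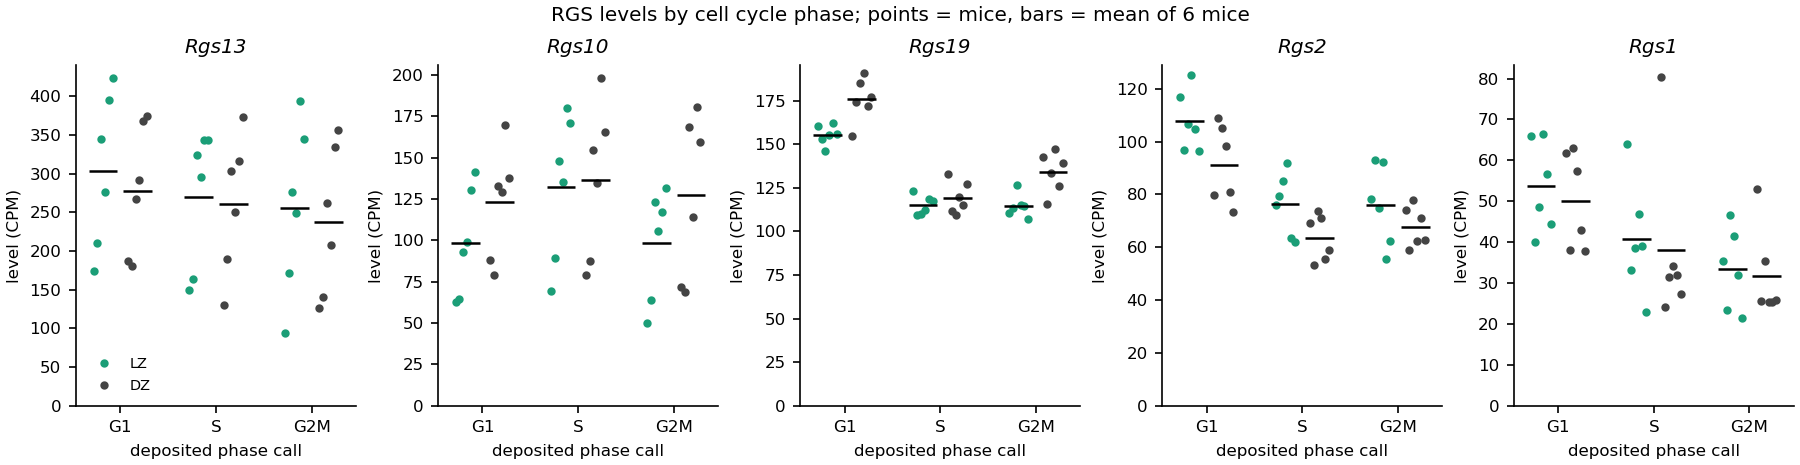
Level (CPM) of 5 RGS genes in cells called G1, S and G2M, in LZ (green) and DZ (grey); points are mice and bars the mean of 6 mice. Rgs19 and Rgs2 are highest in G1 in each zone, and Rgs10 in S phase in LZ.

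At equal depth, the share of cells with an Rgs13 UMI had the same order of states as the CPM. With each cell thinned to 4727 UMIs, which left 5957 cells and removed 662, Rgs13 was found in 6.59% ± 5.79 of PC, 36.2% ± 8.53 of preMem, 37.4% ± 23.2 of LZtoDZ, 62.3% ± 12.1 of LZ and 59.9% ± 13.5 of DZ cells (SD, n = 6 mice). Unthinned, the shares were 12.2, 37.1, 80.4, 72.9 and 77.1%. Rgs2 was found in 1.10% ± 1.48 of thinned PC and 31.4% ± 3.04 of thinned LZ cells, and the share in PC is the lowest of any state, the level that free RNA may reach. Rgs10 was found in 25.1% ± 9.15 of PC, 15.9% ± 7.0 of preMem and 36.7% ± 9.45 of LZ cells.

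Over 30 sums of mouse and state, Rgs2, Rgs13 and Rgs19 had high correlations with each other, and Rgs10 and Rgs1 lower ones with them. Pearson's r of log2(CPM + 1) was 0.949 for Rgs2 with Rgs19, 0.884 for Rgs13 with Rgs19 and 0.882 for Rgs2 with Rgs13, but 0.271 for Rgs10 with Rgs19 and 0.486 for Rgs10 with Rgs13. Rgs1 and its neighbours on chromosome 1 had 0.565 (Rgs2) and 0.474 (Rgs13). Among 4524 other genes, those most like Rgs2 were Pold4 (0.977), Tnfaip8 (0.975) and Laptm5 (0.973). For Rgs19 they were Ccdc50 (0.974), Rhoh (0.967) and Sypl (0.967), and for Rgs1 Itpr3 (0.836), Dctn2 (0.776) and Il17ra (0.776). Among those most like Rgs13 were Zbtb20 (0.928) and Ddx41 (0.924), and among those most like Rgs10 were Dap (0.774) and Gadd45b (0.755). Rgs16, at or near 0 in most sums, had Cflar (0.701), Dnpep (0.676) and Tmed3 (0.644). The sums share mice, wells and depth per state, and these values are descriptions. They include the PC sums, where Rgs2, Rgs13 and Rgs19 are all lowest, and the part of that state was not tested. Over the days within LZ the pattern was another. From day 10 to day 22 the mean rose from 164 to 378 CPM for Rgs13 and from 68.3 to 148 for Rgs10. Rgs19 stood at 130 and 136 CPM on these days.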

How the data were processed

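The deposited matrix gives raw UMI counts for 14493 genes in 6619 cells, and the deposited cell table gives the total count, state, phase, day, mouse and well of each cell. Summed counts equalled the deposited totals in 6619 cells. Reads were processed with Cell Ranger and Seurat against mm10/GRCm38, per the submitters' processing notes, without versions. The rules for states, phases and doublets and the strand setting are not given in the sources used here, and no cell was removed. Receptor and hashtag data were not analysed here.

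Counts were summed per mouse and state, from at least 10 cells (3 for prePC), and fitted in R 4.3.3 with the quasi-likelihood method of edgeR 4.0.16, after filterByExpr and TMM scaling, over all genes, with Benjamini-Hochberg adjustment, a threshold of 0.05 and the mouse as a block between states. The block pairs sums of the same animal: deviations of LZ and DZ sums from their means correlated at 0.346 to 0.677 over 4659 genes, and each of the 6 mice best with itself. The 2 mice of a day are separate animals. A run of some of the fits on simulated counts had no mouse effect shared between states, so it does not bear on the block, and its outcome is not reported here. DESeq2 1.42.0, another scaling, no filter, no immunoglobulin genes, cells thinned to 4727 UMIs, at least 30 cells per sum, the non-PC well, G1 cells, no replicate block and leaving out each mouse were alternatives. The change of a state difference between days, PC against GC within the PC well, Rgs16 with no filter, and levels without immunoglobulin genes, were added after seeing the data. Python 3.11.15 with scipy 1.17.1 and matplotlib 3.10.9 gave levels, intervals and figures. The number of UMIs limits the precision of the small sums, and intervals cover counting error only.

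The genes, pathway lists and tests were chosen with earlier results of these data known. Named besides the 6 genes were, per list, up to 3 called genes of the lowest p with at least 20 CPM in the higher group, in LZ against DZ, PC against GC, preMem against LZ and day 22 against day 10 of LZ and DZ, and the 3 genes (none immunoglobulin, mitochondrial, Gm or Rik, mean CPM at least 20) most correlated with each member, of which 2 are not reported here; others are marked where they stand.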

Additional observations from a re-analysis of the deposited data

Results flagged for a closer look

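In 35 groups of 5 or 6 mice, 6 had a lowest or highest mouse that stood apart from the others by Dixon's criterion. For normally distributed values chance alone meets it in about 1 group in 20. That rate does not hold for Rgs16, where many mice are at 0 and 1 UMI in 1 mouse can set the flag. The number of flags is therefore not to be read against it. For Rgs16 the mouse that stood apart was the highest one: 89.43 CPM in prePC of day 10 mouse 1 (3 UMIs), 18.36 CPM in PC of day 16 mouse 1 (3 UMIs), 3.006 CPM in preMem of day 10 mouse 1 (1 UMI), 0.2308 CPM in DZ of day 16 mouse 2 (1 UMI) and 0.1465 CPM in LZ of day 10 mouse 2 (1 UMI). For Rgs2 it was the lowest one, with 19.46 CPM in LZtoDZ of day 10 mouse 1 (5 UMIs in 11 cells).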

How the results depend on the processing

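In the comparisons of states, 23 results for single RGS genes were called. Of 324 alternatives, 305 kept the call and direction, 19 fell below the threshold and 0 reversed. The 305 include some that could not differ from the main fit. For LZ against DZ and preMem against LZ, every sum already met the higher minimum of cells per sum. That alternative therefore repeated the main fit there and says nothing about robustness. Between LZ and DZ the calls over all genes were 1606 with DESeq2's test, 2000 with thinned cells, 1428 in G1 cells, against 3181, and those of RGS genes were 2 with DESeq2's test and 1 with no replicate block, against 4 (with thinned cells 3: Rgs2, Rgs13 and Rgs19). With no replicate block 3 RGS genes were called between LZtoDZ and LZ. With thinned cells the calls over all genes were 2491 (LZtoDZ against LZ), 2447 (LZtoDZ against DZ), 1483 (preMem against LZ), 2453 (PC against GC) and 264 (prePC against GC), and those of RGS genes 2 (preMem) and 1 (prePC). In G1 cells 1445 genes were called between preMem and LZ, and with DESeq2's test 411 between prePC and GC. Within the PC well, 1493 genes were called between PC and GC.

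For the days, calls over all genes were 276 in LZ, 468 in DZ, 92 in preMem and 104 in LZtoDZ with no filter on low counts, 420 in LZ, 238 in DZ and 6 in preMem without immunoglobulin genes, 16 in DZ in G1 cells, 1 in preMem and 7 in LZtoDZ with thinned cells, and 111 and 6 in LZtoDZ with at least 30 cells or the non-PC well. In LZtoDZ 2 RGS genes were called with no filter or without immunoglobulin genes. With DESeq2's scaling, DESeq2's test, thinned cells or the non-PC well, 1 was called. In DZ the G1 values were 0.86 for Rgs10 and 0.98 for Rgs13. The change of the LZtoDZ difference from LZ of Rgs13 was 1.48 with thinned cells.

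Signs turned only for uncalled values: Rgs10 in PC (0.011 with at least 30 cells, 0.12 within the PC well), Rgs1 in prePC (−0.19 with DESeq2's test, −0.069 with no filter), Rgs2 over days in preMem (0.063, thinned) and Rgs19 over days in LZtoDZ (−0.0050 with DESeq2's scaling, −0.00053 with its test, −0.0050 with no filter, −0.033 without immunoglobulin genes, −0.26 thinned, −0.12 with at least 30 cells). The cause was not tested.

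Leaving out each mouse gave 2 to 4 RGS genes and 2647 to 3032 genes between LZ and DZ, 1 to 2 and 344 to 741 in prePC, −0.86 to 0.26 for Rgs1 in prePC, −0.29 to 0.044 for Rgs10 in PC and −0.095 to 0.047 for Rgs19 in preMem. For the days it gave 25 to 127 genes in LZ (25 without day 22 mouse 1), 17 to 73 in DZ (17 without day 10 mouse 2), 4 to 22 in preMem (22 without day 10 mouse 2) and 5 to 33 in LZtoDZ (5 without day 10 mouse 2), 0.95 to 1.19 for Rgs10 and 0.997 to 1.32 for Rgs13 in LZ, −0.12 to 0.28 for Rgs19 and −0.45 to 0.80 for Rgs1 in LZtoDZ, and 0.97 to 1.23 for the change of the LZtoDZ difference of Rgs13.

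Shares of LZ cells with a UMI depend on depth. Unthinned they were 24.0% (Rgs1), 46.07% (Rgs2), 51.47% (Rgs10) and 64.7% (Rgs19), and at 6134 UMIs 19.87% (Rgs1), 36.54% (Rgs2) and 54.41% (Rgs19). The values of Rgs16 rest on 0 to 7 UMIs a state, and those of prePC on 3 to 28 cells a sum.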
